A study of Mus musculus with 4 samples.

Results

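The histone genes were taken by symbol from the protein-coding genes of the mm10 RefSeq gene table. The rule kept H1f, H2ac, H2bc, H3c or H4c followed by a number, and symbols beginning with Hist1h to Hist4h. The genes kept number 67 of 21887 protein-coding genes, with 10 H1, 17 H2A, 16 H2B, 12 H3 and 12 H4 genes. Histone genes under other symbols, such as H2ax, H2az1, H3f3a and H2aw, were not counted. Genes less than 500 kb apart were joined into clusters, which put 63 genes into 3 clusters and left 4 H1 genes at single loci. The first Hist1 cluster runs from H2bc13 to H2bc11 (chr13:21715711-22043658, 22 genes). The protein-coding gene H4bc24 also lies in this span but does not match the rule. The second Hist1 cluster runs from H4c8 to H2ac1 (chr13:23531044-23934913, 31 genes). The Hist2 cluster runs from H2ac21 to H2bc18 (chr3:96219885-96270192, 10 genes). H1f10 and H1f8 lie apart on chromosome 6, and H1f0 and H1f7 on chromosome 15.

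CTCF, a zinc finger protein that marks many loop anchors, was mapped by chromatin immunoprecipitation and sequencing in mouse embryos labelled as embryonic day 13.5. The header line of the telencephalon list carries the letters e14 instead, and which age applies to it was not settled. The groups were the telencephalon and the medial ganglionic eminence (MGE), the ventral region that produces many cortical interneurons. Each tissue had 1 library made with a rabbit antibody to CTCF, and neither input library was used. No genotype or strain is labelled, and the protocol text names the MGE as the dissected tissue for telencephalon samples too, so whether the telencephalon still contained the MGE is not known. With 1 CTCF library per tissue nothing could be tested between tissues, and every comparison describes these peak lists.

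Canonical histone genes are short, mostly without introns, and are switched on together in S phase, when new DNA must be packed into nucleosomes. They are transcribed in nuclear bodies organised by the factor Npat, and their messages end in a stem loop bound by Slbp instead of a poly(A) tail. H2A, H2B, H3 and H4 form the nucleosome core and H1 binds the linker DNA. Many H2A and H2B genes lie head to head and are transcribed away from a common stretch of promoter.

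The MGE list held 25625 peaks on chromosomes 1 to 19, X and Y, and the telencephalon list held 31886. Peaks of the different lists that overlapped by 1 bp or more are called shared, which was so for 58.4% of MGE peaks and 47.0% of telencephalon peaks. The narrowest MGE peaks measured 244 bp and the narrowest telencephalon peaks 150 bp. The lists hold positions without read counts, so depth is unknown and a site missing from a list can lie below its calling limit. The telencephalon header line also carries p001, that of the MGE list p01. No source says if these stand for calling thresholds, so the lists may have been called at different limits, and a peak of 1 list alone can reflect that. Library kits also differed between the tissues, so tissue and kit cannot be told apart. Shares are given with their exact 95% interval (Clopper-Pearson), which covers counting error only. Neighbouring histone genes can have the same peak within reach, so these intervals are too narrow.

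The promoter of H4c6, an H4 gene of the second Hist1 cluster, is shown because it was the only one of 62 histone genes with a promoter window in the RefSeq table (GRCm38.p6, the coordinates of mm10) that a peak of either list overlapped. The window reaches from 250 bases before the start of a gene to 50 after it, and the 250 bases before the start are printed, 5′ to 3′, with the 138 bases under the telencephalon peak in capitals (chr13:23551669-23551918, minus strand).
H4c6: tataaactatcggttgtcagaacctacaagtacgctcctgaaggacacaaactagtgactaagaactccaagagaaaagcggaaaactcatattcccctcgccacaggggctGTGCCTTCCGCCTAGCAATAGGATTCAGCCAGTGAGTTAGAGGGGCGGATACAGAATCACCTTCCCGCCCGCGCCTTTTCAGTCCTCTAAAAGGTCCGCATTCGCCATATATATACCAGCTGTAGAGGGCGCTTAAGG
The CTCF core, a pattern of 12 letters that was searched on both strands, is not in this window. The window held 188 of the 256 bp of the peak, and the rest of the peak was not searched. A shorter pattern that overlaps the end of the core, AGNNGGCGC, chosen after the sequence was seen, occurs once, from base 15 to base 7 before the start and under the peak. The shorter pattern is in 4 of 63 histone promoter windows (H1f10, H4c11, H4c12 and H4c6) and in 9.18% of the 21263 windows of protein-coding genes. Over all protein-coding genes, the core was in 23.1% of windows overlapped in telencephalon alone and in 43.9% of those overlapped in both lists. Most windows under a peak thus lacked it, as did those of C230035I16Rik, Nol12 and Gm52189 within 200 kb of histone loci. By contrast, the promoter of Copg1, a coat protein gene within 200 kb of H1f10, held the full core (capitals) under a shared peak (chr6:87887690-87887939, plus strand).
Copg1: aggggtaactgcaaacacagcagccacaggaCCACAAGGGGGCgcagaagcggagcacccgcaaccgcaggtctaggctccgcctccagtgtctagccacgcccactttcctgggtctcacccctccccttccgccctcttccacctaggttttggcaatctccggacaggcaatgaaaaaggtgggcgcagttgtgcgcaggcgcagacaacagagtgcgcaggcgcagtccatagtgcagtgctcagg

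The stretches between head-to-head H2A and H2B genes are shown because a telencephalon peak lay inside the adjoining H2A gene and none in the stretch itself. They belong to H2ac13 and H2bc13 (chr13:21716184-21716411), H2ac23 and H2bc23 (chr13:21810200-21810366), H2ac12 and H2bc12 (chr13:22035644-22035820), H2ac8 and H2bc8 (chr13:23571221-23571399) and H2ac7 and H2bc7 (chr13:23574208-23574380). Each is printed whole in the direction of the H2A gene, with CCAAT boxes, the octamer ATTTGCAT and the TATA box (searched as TATAAA), on either strand, in capitals.
H2ac13: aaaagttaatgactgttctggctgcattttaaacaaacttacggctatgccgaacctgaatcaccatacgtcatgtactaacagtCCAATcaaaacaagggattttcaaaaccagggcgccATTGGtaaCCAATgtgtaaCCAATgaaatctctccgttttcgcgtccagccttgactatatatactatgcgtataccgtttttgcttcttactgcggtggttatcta
H2ac23: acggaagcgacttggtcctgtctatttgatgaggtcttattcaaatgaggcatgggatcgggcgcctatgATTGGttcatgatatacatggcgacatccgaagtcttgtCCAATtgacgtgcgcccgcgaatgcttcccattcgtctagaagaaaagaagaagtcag
H2ac12: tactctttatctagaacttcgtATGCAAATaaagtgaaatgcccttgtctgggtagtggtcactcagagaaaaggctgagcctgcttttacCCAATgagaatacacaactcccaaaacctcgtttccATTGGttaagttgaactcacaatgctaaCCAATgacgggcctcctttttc
H2ac8: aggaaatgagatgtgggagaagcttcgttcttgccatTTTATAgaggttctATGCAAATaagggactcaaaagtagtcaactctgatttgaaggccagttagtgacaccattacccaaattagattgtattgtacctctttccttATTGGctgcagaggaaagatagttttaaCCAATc
H2ac7: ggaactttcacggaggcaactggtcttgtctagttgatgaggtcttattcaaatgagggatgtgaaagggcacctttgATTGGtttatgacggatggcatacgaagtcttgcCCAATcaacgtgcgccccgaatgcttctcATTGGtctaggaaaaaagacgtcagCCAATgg
The stretches of H2ac13 and H2ac7 hold 4 CCAAT boxes each, and that of H2ac23 holds 2. That of H2ac12 holds 3 and 1 octamer, and that of H2ac8 holds 2, 1 octamer and 1 TATA box. There were 9 such head-to-head pairs with known strands, 163 to 280 bp apart, and 0 of them had a peak of either list between the genes. Over the genome there were 9.48 MGE and 11.8 telencephalon peaks per Mb. Stretches this short would rarely hold a peak at those densities, so the count of 0 says little about them.

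Histone promoter windows held the boxes known from this gene family more often than those of all protein-coding genes did. CCAAT was in 52 of 63 windows (82.5%, against 38.2% of all windows of protein-coding genes), TATAAA in 34 (54.0% against 12.6%), the octamer in 13 (20.6% against 1.66%) and the H1 box AAACACA in 9 (14.3% against 6.15%). The octamer was in 7 of 15 H2B and 6 of 17 H2A windows and in 0 of the H1, H3 and H4 windows. CCAAT was in all H2A, H2B and H3 windows and in 7 of 10 H1 windows. Of the H4 windows 3 of 11 held it (27.3%), too few windows to set apart from the share over all genes. The H1 box was in 5 of 10 H1, 2 of 17 H2A and 2 of 15 H2B windows and in 0 of the H3 and H4 windows. The windows of head-to-head pairs overlap and so hold some of the same boxes. The CTCF core was in 2 of 63 windows (3.17% against 9.88%), those of H3c15 and H3c14 in the Hist2 cluster, and neither was overlapped by a peak. MGE peaks overlapped the windows of 0 of 62 histone genes (exact 95% interval up to 5.78%), against 5.23% of 17492 protein-coding genes, which lies within the interval. Telencephalon peaks overlapped 1 of 62 (up to 8.66%), against 9.17%, just above it.

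How the histone genes compared with others depended on the window. The MGE list had a peak no more than 10 kb from 30 of 67 histone genes, peaks inside the gene included (44.8%, interval 32.6 to 57.4%), against 51.3% of all protein-coding genes. The telencephalon list had one for 46 of 67 (68.7%, 56.2 to 79.4%), against 61.3%. Distinct peaks numbered 19 in MGE and 32 in telencephalon, 15 of them shared in each list. Both lists marked 28 genes (41.8%, against 45.9% of all protein-coding genes). The telencephalon list alone marked 18 (26.9% against 15.4%), the MGE list alone 2, H2ac6 and H1f7 (2.99% against 5.44%), and 19 genes had a peak in neither (28.4% against 33.3%). Within 5 kb the MGE share was 25.4% (43.2% of all protein-coding genes).

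Most histone genes span under 1 kb, and a window around a long gene holds more sequence. Of protein-coding genes of up to 2 kb, 21.4% had an MGE peak in this window and 21.6% a telencephalon peak, both below the intervals of the histone genes. With 10 kb on either side of the midpoint for every gene, the histone counts were the same and those of all protein-coding genes were 26.1% and 34.1%.

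By class, the intervals overlapped within each list. H4 genes had a telencephalon peak within 10 kb in 11 of 12 cases (91.7%, 61.5 to 99.8%) and an MGE peak in 4 of 12 (33.3%, 9.92 to 65.1%). H2B genes had 13 of 16 and 9 of 16, H2A genes 9 of 17 and 7 of 17, and H3 genes 7 of 12 and 4 of 12. H1 genes had 6 of 10 in each list. Genes with a shared peak within 10 kb numbered 22 of 67 (32.8%), against 42.2% of all protein-coding genes and 13.4% of those of up to 2 kb. These were 7 H2B, 5 H1, 4 H2A, 4 H4 and 2 H3 genes.

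**Figure D1:**
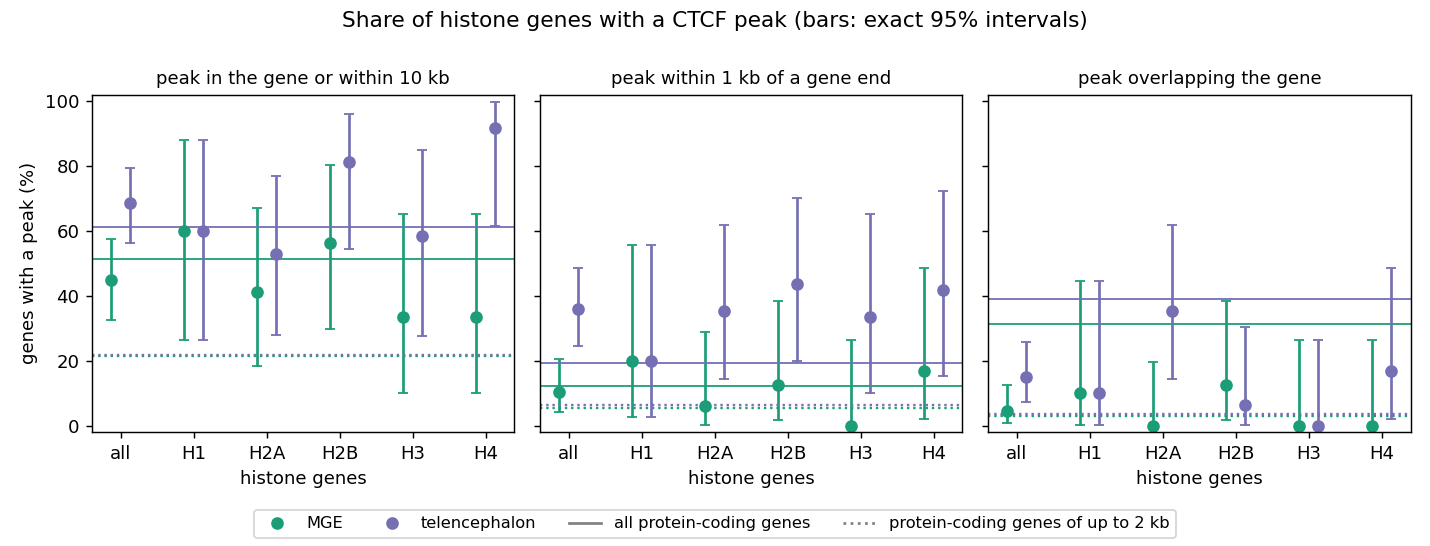
Share of histone genes, in percent, with a CTCF peak in 3 windows, for all 67 genes and for each class. Points are shares in the MGE (green) and telencephalon (purple) lists with exact 95% intervals, solid lines are the shares of all protein-coding genes in the same colours and dotted lines those of genes of up to 2 kb. The telencephalon share at gene ends lies above both of its lines for all histone genes together (35.8%), while the MGE share (10.4%) lies near the solid line.

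Peaks at gene ends set the lists apart. Within 1 kb of either end of the gene, 24 of 67 histone genes had a telencephalon peak (35.8%, 24.5 to 48.5%, against 19.3% of all protein-coding genes and 6.43% of those of up to 2 kb). In MGE 7 of 67 had one (10.4%, 4.30 to 20.3%, against 12.1% and 5.34%). All 7 genes of the MGE list, H1f10, H2bc13, H4c11, H2ac8, H2bc8, H1f6 and H4c3, also had one in telencephalon (10.4% in both, against 10.5% of all protein-coding genes). The other 17 telencephalon genes (25.4%, against 8.79%) were H2ac13, H3c10, H2bc14, H2bc23, H2ac23, H4c17, H2ac12, H2bc12, H2bc11, H4c6, H3c6, H2bc7, H2ac7, H3c4, H2ac4, H3c2 and H4c14. They belong to all classes except H1. The 24 genes rested on 15 distinct peaks, 4 of them shared, and the 7 on 5 peaks, 4 of them shared. Among the wider 50% of telencephalon peaks 7 of 67 genes had one (10.4%, 4.30 to 20.3%), near the 11.98% of all protein-coding genes.

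Much of the telencephalon count came from peaks lying inside H2A genes. Of 17 H2A genes, 6 had a telencephalon peak in the gene (35.3%, 14.2 to 61.7%) and 0 had an MGE peak, which allows up to 19.5%. Among the 50 genes of the other classes 4 had a telencephalon peak in the gene (interval 2.22 to 19.2%) and 3 an MGE peak. Of all protein-coding genes 39.1% had a telencephalon peak in the gene and 31.4% an MGE peak, but of those of up to 2 kb only 3.60% and 2.98%. The H2A class was singled out after these values were seen. None of the 6 peaks was shared.

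A peak wholly within so short a gene, as all of the 6 but that of H2ac12 were, cannot be centred close to either end. The places of the 6 peaks are therefore a description. In H2ac13 the peak was chr13:21716580-21716773, with its midpoint 264.5 bp from the start of the gene. In H2ac23 it was chr13:21810566-21810798 and the midpoint lay 315 bp in. In H2ac12 the peak, chr13:22035101-22035356, reached past the far end of the gene and its midpoint lay 414.5 bp in. These 3 genes belong to the first Hist1 cluster.

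In the second Hist1 cluster, H2ac8 had the peak chr13:23570776-23570987, with its midpoint 338.5 bp from the start. The H2ac7 peak (chr13:23574571-23574772) was centred 290.5 bp in, and the H2ac4 peak (chr13:23751243-23751468) 267.5 bp in. Over the 6 genes the midpoint lay 264.5 to 414.5 bp from the start, with a median of 303 bp, in genes of 448 to 558 bp. H2ac14, an H2A pseudogene of the first cluster, also held a telencephalon peak (chr13:21721491-21721719). H2aw, an H2A gene on chromosome 11 outside the symbol rule, held another (chr11:58954824-58955084) centred 269 bp from its start.

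**Figure D2:**
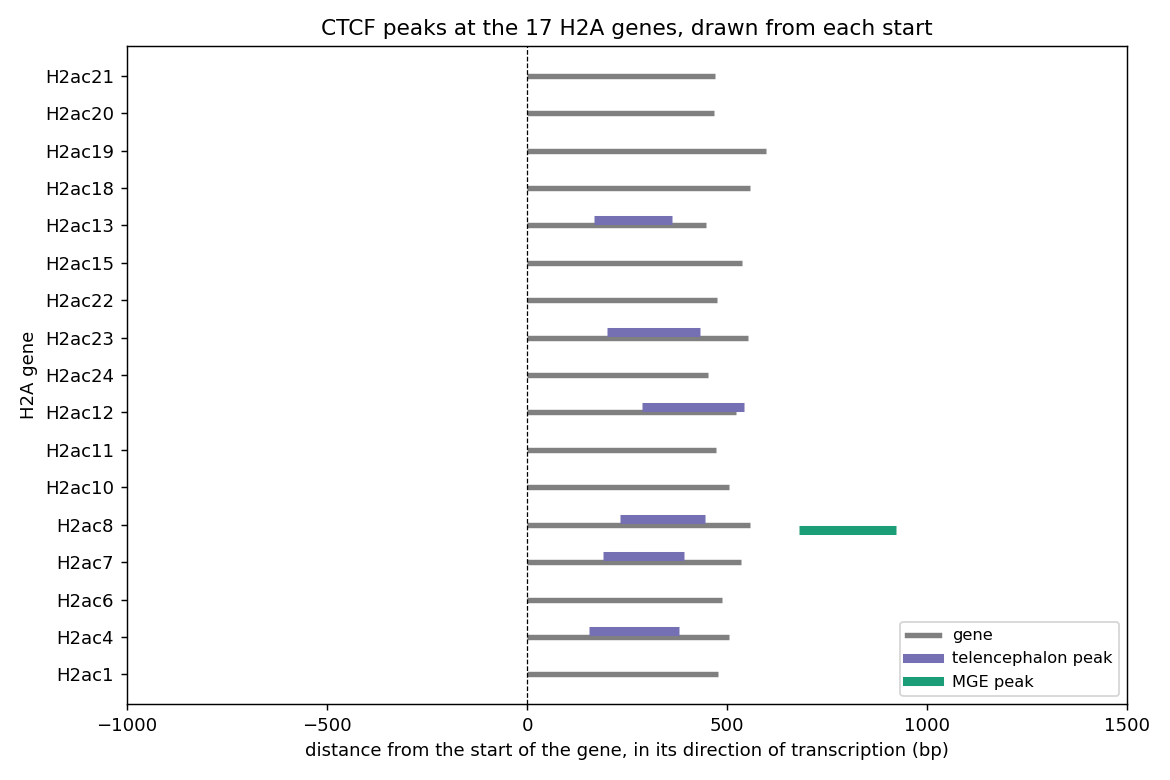
The 17 H2A genes (grey) drawn from their start at 0, in the direction of transcription, in bp, with the telencephalon peaks (purple) and MGE peaks (green) around them. In 6 genes a telencephalon peak lies in the body of the gene, at H2ac12 reaching past its far end, and the only MGE peak in view lies beyond the far end of H2ac8.

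The 7 telencephalon peaks in H2A genes and the H2ac14 pseudogene were 194 to 256 bp wide, with a median of 226 bp against 276 bp for the whole list. All 7 were unshared, and the median of all unshared telencephalon peaks was 223 bp, so this width is ordinary for such peaks. The MGE list has no peak under 244 bp, and 6 of the 7 were narrower than that. H2A genes are a family of similar coding sequences, whose identity under these peaks was not measured here. The treatment of reads with several matches is not stated in the labels or notes, and its part in these peaks was not tested. Of 2583 protein-coding genes of up to 2 kb, 33 had a telencephalon peak in the gene and no MGE peak (1.28%). Of those 33, 8 were histone genes of the symbol rule, 6 of them H2A genes, and H2aw was a further one.

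When these 7 peaks were left out, which was decided after the data were seen, the telencephalon gene-end count fell from 24 to 9 of 67 (13.4%), because an H2A gene often lies within 1 kb of its neighbours. H3c10 lay 854 bp from the H2ac13 peak. H2bc23 lay 366 bp and H4c17 947 bp from the H2ac23 peak, and H2bc7 363 bp and H3c4 990 bp from the H2ac7 peak. H3c2 was 876 bp from the H2ac4 peak, H2bc12 464 bp from the H2ac12 peak and H2bc8 412 bp from the H2ac8 peak. H2bc14 was 324 bp from the pseudogene peak. H2bc13 lay 396 bp from the H2ac13 peak but kept its gene-end peak, a shared one, without it. The count within 10 kb fell from 46 to 36 of 67 (53.7%).

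The other 8 of the 15 gene-end peaks lay outside H2A genes and the pseudogene and reached the remaining 9 genes. The telencephalon peak over the start of H4c6 (chr13:23551551-23551806, 256 bp) had no MGE partner, and the MGE list came no closer to the gene than 18628 bp. H4c14, the H4 gene of the Hist2 cluster, was overlapped at its upper end by 31 bp of a telencephalon peak (chr3:96263287-96263629), while its closest MGE peak was at 14634 bp. H3c6 had a telencephalon peak 764 bp away (chr13:23563150-23563401) and H2bc11 one 508 bp away (chr13:22044167-22044483), neither shared. At H2ac8 the lists held different peaks, since the MGE peak (chr13:23570297-23570540, 244 bp) lay 122 bp beyond the gene and did not overlap the telencephalon peak inside it. The same MGE peak lay 859 bp from H2bc8.

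Shared gene-end peaks were found at 5 of 67 genes in each list (7.46%, 2.47 to 16.6%), near the share of all protein-coding genes (10.5% in MGE and 10.6% in telencephalon) and of those of up to 2 kb (3.72% and 3.76%). H1f10, a linker histone gene expressed independently of S phase, carried one across its far end, chr6:87980367-87980661 in MGE and chr6:87980272-87980598 in telencephalon. H4c11 had one 591 bp from the gene in MGE (chr13:21734115-21734442) and 306 bp in telencephalon (chr13:21734163-21734727, 565 bp wide). H1f6, a testis linker histone gene, and H4c3 lie on either side of another, chr13:23697371-23697707 in MGE and chr13:23697449-23697759 in telencephalon. It lay 825 and 903 bp from H1f6 and 376 and 324 bp from H4c3. At H2bc13 the shared peak marked the lower edge of the first Hist1 cluster.

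Shared peaks lay within 10 kb outside both edges of the first Hist1 cluster and at 1 edge of each of the others. At the lower edge of the first cluster the peak lay 578 bp before H2bc13 in MGE (chr13:21714646-21715132) and 628 bp before it in telencephalon (chr13:21714700-21715082). At its upper edge it lay 7188 bp past H2bc11 in MGE (chr13:22050847-22051305) and 7256 bp past it in telencephalon (chr13:22050915-22051290). Another telencephalon peak, 576 bp wide and with no MGE partner, lay 5421 bp before H2bc13 (chr13:21709714-21710289).

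The lower edge of the second cluster had a shared peak 6094 bp before H4c8 in MGE (chr13:23524649-23524949) and 6052 bp before it in telencephalon. Beyond its upper edge the nearest shared peak was 178042 bp from H2ac1 in MGE and 177970 bp in telencephalon, inside Carmil1. The Hist2 cluster had a wide shared peak 7759 bp past H2bc18 in MGE (chr3:96277952-96278710, 759 bp) and 7758 bp past it in telencephalon (chr3:96277951-96278681, 731 bp). Those widths were at the percentiles 99.7 and 98.8 of their lists. On its lower side the nearest shared peak lay 71597 bp from H2ac21 in MGE and 71385 bp in telencephalon, inside Otud7b. For scale, the median distance from a protein-coding gene to its nearest shared peak was 17215 bp in the MGE list, and from a histone gene 19488 bp. A shared peak in the gene or within 10 kb was found for 42.2% of all protein-coding genes. No such share was computed for cluster edges, so these distances are a description only.

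**Figure D3:**
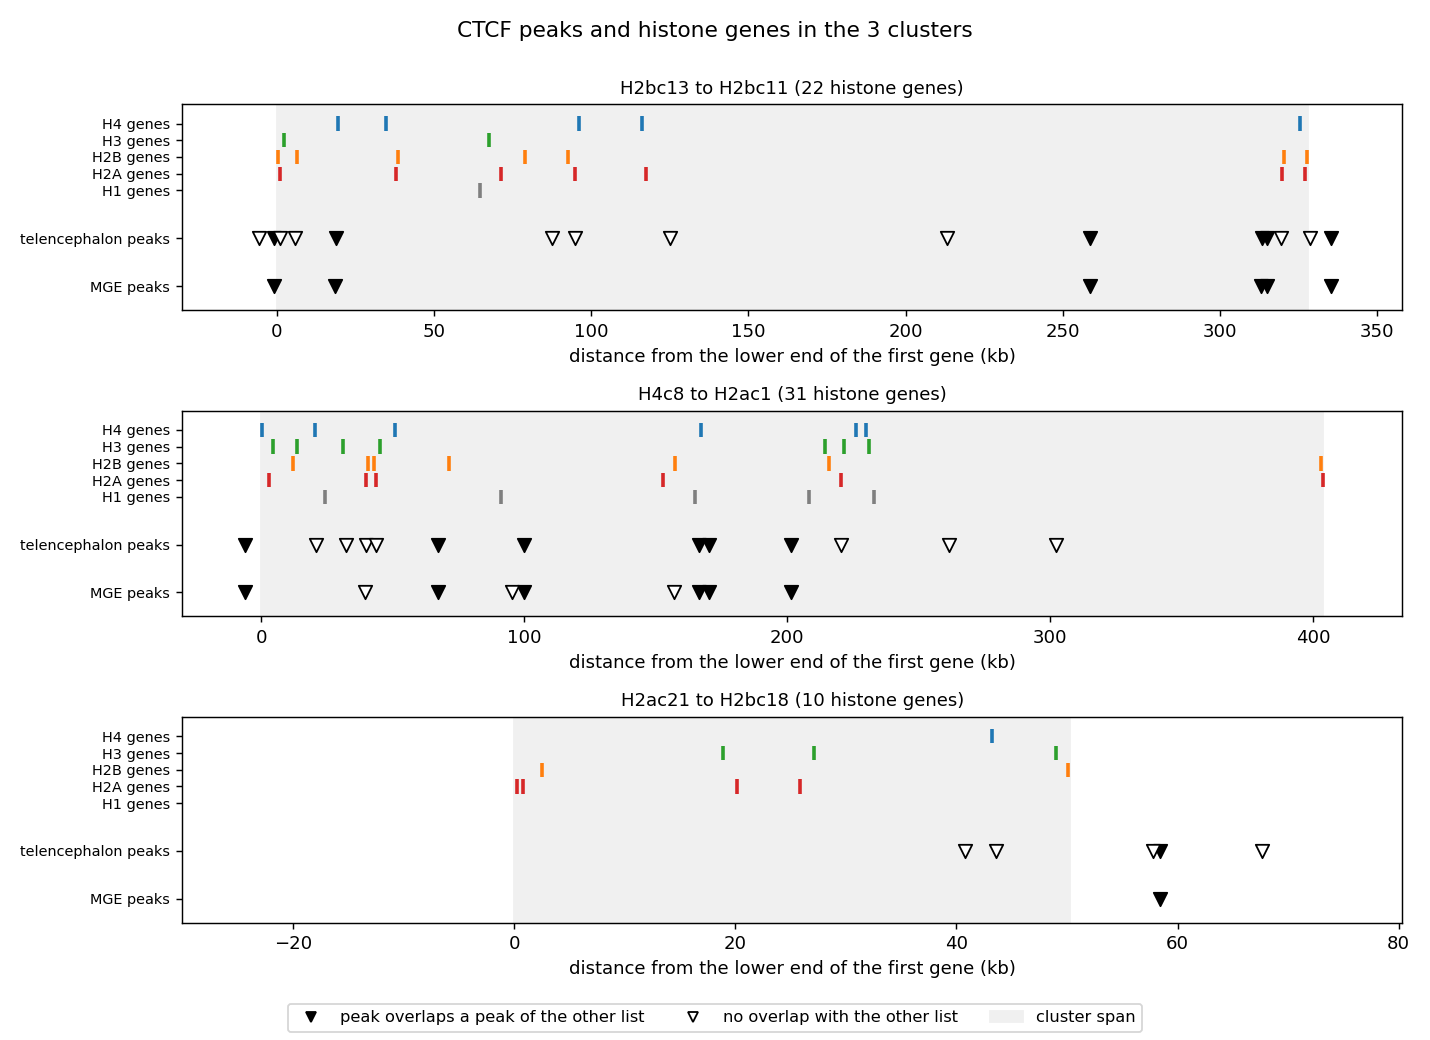
CTCF peaks (triangles, filled when shared) and histone genes (ticks, by class) along the 3 clusters, in kb from the lower end of the first gene, with 30 kb outside each end. The shaded spans hold 4, 8 and 0 MGE peaks and 11, 12 and 2 telencephalon peaks from top to bottom.

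Inside the cluster spans telencephalon peaks were denser than over their chromosomes and the genome, while the MGE interval held those values. The 3 spans together held 12 MGE peaks (15.3 per Mb, exact Poisson interval 7.93 to 26.8) and 25 telencephalon peaks (32.0 per Mb, 20.7 to 47.2). Chromosome 13 held 9.05 and 10.5 peaks per Mb, chromosome 3 held 9.49 and 10.1, and the genome 9.48 and 11.8. Without the peaks in H2A genes and the pseudogene the spans held 18 telencephalon peaks in place of 25. Among the wider 50% of telencephalon peaks they held 16.6 per Mb, against 5.90 over the genome. Of the peaks inside the spans 9 of 12 in MGE were shared (interval 42.8 to 94.5%) and 9 of 25 in telencephalon (36.0%, 18.0 to 57.5%). With the flanks of 200 kb the counts were 18 of 26 (69.2%, 48.2 to 85.7%) and 18 of 43 (41.9%, 27.0 to 57.9%). These intervals contain the shares of the whole lists.

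In the first Hist1 cluster all 4 MGE peaks of the span were shared, and 7 of 11 telencephalon peaks were not. Besides the peak at H4c11, the shared ones lay in the stretch between H2ac24 and H2ac12, where the genes Zfp184, Pom121l2 and Prss16 lie. They were 60620, 6039 and 4320 bp from H2ac12 in MGE, and the middle one had the widest telencephalon peak of the cluster (chr13:22028696-22029427, 732 bp). The 6 genes from H4c12 to H2ac22 had no peak of either list within 10 kb. H1f5, a linker histone gene, was the farthest from a telencephalon peak (22477 bp) and H2ac24 the farthest from an MGE peak (98581 bp). The unshared telencephalon peaks of the span outside H2A genes and the pseudogene lay 1541 bp from H2bc22, 7018 bp from H2ac24 and 95098 bp from H2ac24.

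In the second Hist1 cluster each list had 5 shared peaks in the span, 8 in all in MGE and 12 in telencephalon. One lay inside the annotated H2bc6 gene, whose longest model spans 37455 bp (chr13:23597841-23598319 in MGE and chr13:23598037-23598319 in telencephalon). The others lay nearest H1f4 (8187 bp away in MGE), H4c3 (376 and 2778 bp) and H1f2 (5950 bp). The peak 2778 bp from H4c3 also lay at an end of Hfe, the iron regulator gene mutated in haemochromatosis. The 3 unshared MGE peaks of the span were all 244 bp wide, the narrowest width of the list, and lay beside H2ac8, 3760 bp from H1f4 and inside H2bc4. That width is not particular to them. The shared MGE peaks 8187 bp from H1f4 and 2778 bp from H4c3 had it too, as did 7399 of all 25625 MGE peaks. The unshared telencephalon peaks outside histone genes included one at an end of Trim38 (chr13:23792537-23792837). H2bc1 and H2ac1, testis histone genes set apart from the rest, were the farthest from peaks, with H2bc1 at 178799 bp in MGE and 93394 bp in telencephalon.

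In the Hist2 cluster 0 MGE peaks lay in the span of 50308 bp, for which the exact 95% Poisson interval reaches up to 73.3 peaks per Mb. The 2 telencephalon peaks there, a 150 bp peak 2190 bp from H4c14 and the one at its end, were unshared. H3c13 and H2bc18, next to the wide shared peak, were the only genes of this cluster with an MGE peak within 10 kb. H2ac21 lay farthest from peaks, at 57597 bp in MGE and 40239 bp in telencephalon. No telencephalon peak lay within 10 kb of the first 7 genes of the cluster, from H2ac21 to H3c14.

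**Figure D4:**
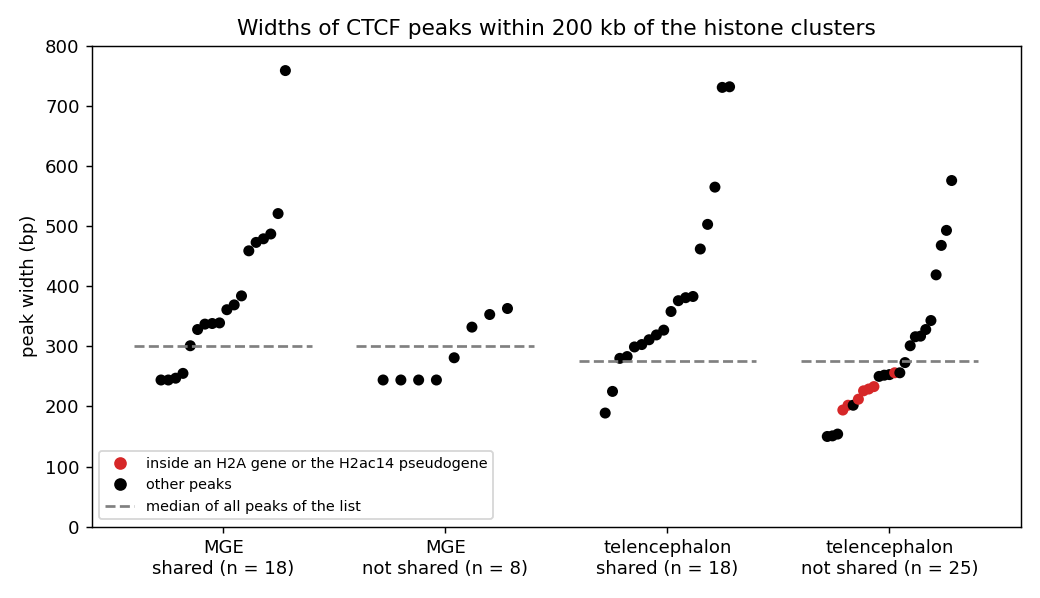
Widths in bp of the peaks within 200 kb of the 3 clusters, by list and by whether they were shared, with points ordered by width within each column and dashed lines at the median of all peaks of the list. Peaks inside H2A genes or the H2ac14 pseudogene (red) lie below the telencephalon median of 276 bp, as does the median of all unshared telencephalon peaks (223 bp).

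Shared peaks of the clusters were wider than unshared ones, as over the whole lists. Within 200 kb of the clusters the median width was 350 bp for 18 shared and 262.5 bp for 8 unshared MGE peaks. In telencephalon it was 342.5 bp for 18 shared and 253 bp for 25 unshared peaks. Over all peaks the medians were 345 and 244 bp in MGE and 346 and 223 bp in telencephalon.

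The single H1 loci differed among themselves. H1f0, the linker histone gene of quiescent and differentiating cells, had 2 MGE peaks and 3 telencephalon peaks within 10 kb. The shared ones lay inside Gcat, 7302 and 8451 bp from H1f0 in MGE. Its surroundings were dense, with 17 MGE peaks within 200 kb, 16 of them shared, and 23 telencephalon peaks, 16 of them shared. H1f10 had 7 and 11 peaks within 200 kb, with 6 and 7 shared, and its shared gene-end peak was the only one within 10 kb.

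H1f8, the oocyte linker histone gene, had none within 10 kb in either list and the nearest at 43430 bp in MGE and 43587 bp in telencephalon. H1f7, a spermatid linker histone gene, had a 244 bp MGE peak 4476 bp away (chr15:98261784-98262027) and the nearest telencephalon peak at 74268 bp. Over the 4 loci 32 of 38 MGE peaks within 200 kb were shared (84.2%, 68.7 to 94.0%) and 33 of 52 telencephalon peaks (63.5%, interval up to 76.4%). Both intervals lie above the shares of the whole lists, 58.4% and 47.0%. The surroundings of H1f0 alone gave 17 of the 38 and 23 of the 52.

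Other genes were described from lists of 13 histone genes outside the symbol rule, 14 factors of histone transcription and message processing and 18 histone chaperones. The 13 include replacement variants such as H2ax, but also H2aw, H2bu2, H3f4 and H4f16, so they are not all replacement histones. Within 10 kb, 7 of these 13 histone genes had an MGE peak (53.8%) and 10 of 13 a telencephalon peak (76.9%), against 51.3% and 61.3% of all protein-coding genes. H2az1 and H3f3a, which encode variants deposited also outside S phase, and Macroh2a2 had a peak in the gene in both lists. H3f3b, which encodes the same protein as H3f3a, had one in telencephalon, with the nearest MGE peak 61385 bp away. H2ax, the variant phosphorylated at DNA breaks, had one in MGE, with the nearest telencephalon peak 21297 bp away.

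Factors of histone transcription and message processing had 7 of 14 in MGE and 10 of 14 in telencephalon (71.4%). Slbp, Lsm11, a subunit of the particle that cuts histone messages, Zfp473, Eri1 and Ncbp1 had a peak in the gene in both lists. Npat had one in telencephalon, with its closest MGE peak at 19110 bp. Hinfp, the activator of H4 genes, had its nearest peaks at 22931 and 23021 bp. Chaperone genes had 13 of 18 in MGE (72.2%) and 15 of 18 in telencephalon (83.3%), against 51.3% and 61.3% of all protein-coding genes. These lists are small and gene length was not taken into account, so the counts are a description only. At gene ends the histone genes outside the rule counted 3 of 13 in MGE and 4 of 13 in telencephalon, the factors 2 of 14 and 4 of 14. The chaperones counted 5 of 18 in each list (27.8%), against 12.1% and 19.3%, with Asf1b, Chaf1b, Cabin1 and Hjurp in both.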

How the data were processed

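CTCF peak lists of 1 telencephalon and 1 MGE library were used, without the input libraries. The authors' deposited files hold positions of peaks (chromosome, first and last base), per the file headers and values, with no score, fold or p-value. The build mm10, MACS2 2.1.1.20160309 and Bowtie2 2.3.2 are named, per the submitters' processing notes. The meaning of p001 and p01 in the file headers is not stated. For the calling threshold, control and filters, the method is not given in the sources used here. Library kits differed between the tissues, per the labels' protocols.

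Only peaks of the autosomes and of X and Y entered (85 MGE and 93 telencephalon peaks were set aside) and written as 1-based mm10 positions. Genes and promoter windows came from RefSeq tables on GRCm38.p6. Windows matched 62 of 67 histone genes, and strands came from them. Python 3.11.15, pandas 2.3.3, numpy 2.4.6, scipy 1.17.1 and matplotlib 3.10.9 were used. Overlap and motif searches were tested on simulated data. No test was made, as each tissue had 1 library. Alternatives were other windows, flanks and gene ends, stricter overlap, wider peaks, equal list lengths and lists without peaks in H2A genes. The text names members with a gene-end peak, those nearest a shared peak in a span, single loci, and the member farthest from a peak in each cluster. Members, gene lists and motifs were chosen with earlier results of these data known.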

Additional observations from a re-analysis of the deposited data

How the results depend on the processing

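No paired analysis was possible because each tissue had 1 CTCF library. With windows of 5 kb the histone share with a peak was 25.4% in MGE and 46.3% in telencephalon (all protein-coding genes 43.2% and 53.4%), and with 20 kb it was 65.7% and 85.1% (63.3% and 71.1%). The wider 50% of peaks gave 29.9% and 41.8% within 10 kb (36.5% and 44.5%), 10.4% at telencephalon gene ends (11.98%), 17 and 25 peaks within 200 kb of the clusters, 64.0% shared in telencephalon and 16.6 telencephalon peaks per Mb of span (genome 5.90). Flanks of 50 kb left 17 MGE peaks. The next 2 alternatives were chosen after seeing the data. Without the telencephalon peaks inside H2A genes or the pseudogene the shares were 53.7% within 10 kb and 13.4% at gene ends. With only the widest telencephalon peaks, as many as the MGE list holds, 24 of 67 genes (35.8%) had a gene-end peak, against 16.8% of all protein-coding genes. This cut removed none of the peaks inside H2A genes, the narrowest of which was at the width percentile 21.1 of its list. The unchanged count therefore says little about the effect of list length on those peaks. The telencephalon gene-end share was above that of all protein-coding genes with gene ends of 500 bp (25.4% against 14.5%), 1 kb and 2 kb (38.8% against 26.7%). Among wider peaks it was near that share. Leaving out the H2A peaks could only lower the histone share. The share of all protein-coding genes was not recomputed for that setting, so no comparison is drawn from it. The other 29 values recomputed under alternatives stayed within the interval or within 1.5 times the count. No library could be left out, and without read counts the depth behind a missing peak is unknown.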

Other observations

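Between the Hist1 clusters lies a stretch of 1.49 Mb (chr13:22043659-23531043) with 41 protein-coding genes, 36 of them vomeronasal receptor genes (Vmn1r). It held 12 MGE peaks and 8 telencephalon peaks (8.07 and 5.38 per Mb), 4 shared in each list. The genome held 9.48 and 11.8 per Mb. More than 200 kb from either cluster, over 1.09 Mb, there were 6 MGE peaks and 1 telencephalon peak, and 0 were shared. Over the whole lists 58.4% of MGE and 47.0% of telencephalon peaks were shared. Peaks this few allow a description only.

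The span of the first Hist1 cluster also holds 31 annotated tRNA genes, while the spans of the second Hist1 cluster and the Hist2 cluster hold 0. An MGE peak lay within 1 kb of 3 of these 31 tRNA genes and a telencephalon peak within 1 kb of 4. The share over all tRNA genes was not computed, so these counts are a description only. The telencephalon peak of 732 bp in this cluster overlapped one of them, n-TIaat7.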
